A study of Homo sapiens with 6 samples.

Results

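The genes described here are 10 members of the circadian clock: the repressors BHLHE41, BHLHE40, PER1, PER2, PER3, CRY1 and CRY2, the activator CLOCK, and the output factors DBP and TEF. They were found by symbol among 62696 gene rows, and all 10 passed the filter on low counts. The genes were chosen by name with the knockout against vector difference in these same libraries known, and BHLHE41 heads them for its low read counts in the knockout. That comparison is therefore given for the 10 genes as a description, without a test.

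Bulk RNA sequencing compared knockout of CDK12, a kinase that acts in transcription elongation, with vector cells in C4-2, an established line of human prostate cancer that grows without testicular androgen. There were 3 libraries of C4-2 carrying the vector (labelled VEC, genotype WT) and 3 libraries of C4-2 with a CRISPR-Cas9 knockout of CDK12 (labelled CDK12KO). All were untreated and grown in RPMI1640 with serum. The labels do not say whether the knockout is 1 clone or a pool, or whether replicates were separate cultures, so the spread between libraries may be technical, and p-values measure that spread only. Loss of CDK12 and any other difference between the lines cannot be told apart. Neither a harvest time nor a clock synchronisation step is given in the sources used here, and many clock transcripts change with time of day, so clock phase and genotype cannot be told apart.

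The circadian clock is a feedback loop of transcription. CLOCK pairs with BMAL1 and activates genes through a DNA element called the E-box, among them the PER and CRY genes, whose proteins come back to inhibit the CLOCK and BMAL1 pair. BHLHE40 and BHLHE41 are closely related basic helix-loop-helix repressors that bind E-boxes themselves. DBP and TEF, which belong to the PAR bZIP family, activate genes through another element, the D-box, and so carry the rhythm to output genes and back to the PER genes.

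Depth ranged from 24660798 to 30732841 reads a library, and from 16617644 to 21590817 of these fell in genes. Levels are in CPM, each gene's share of the scaled library total, and values for a group are in the order of its replicate numbers. Across all tested genes knockout library 2 stood apart, with r = 0.916 to 0.950 to the other libraries against 0.977 to 0.990 among them. The comparison of the 10 genes is therefore given with and without it. For many other genes the value of only 1 of these fits is given. CDK12 itself stood at 60.2, 48.0 and 57.1 CPM in the vector libraries and at 60.8, 56.9 and 56.5 CPM in the knockout libraries. Counts over a whole gene do not check a knockout made by a small change in its sequence. Of the prostate markers, KLK3 was at 5186 ± 81.4 and 4871 ± 848 CPM in the vector and knockout groups (SD, n = 3 each), FOLH1 at 692 ± 25.9 and 611 ± 20.5, HOXB13 at 428 ± 19.1 and 477 ± 91.2, and TMPRSS2 at 242 ± 15.5 and 195 ± 20.9. The 3 epithelial markers (EPCAM, KRT8, KRT18) summed to 972 to 1160 and 1070 to 2350 CPM. The 2350 is knockout library 2. In knockout libraries 1, 2 and 3 KRT8 was at 575, 1100 and 554 CPM, and KRT18 at 412, 1154 and 406 CPM. For markers of other cells, 4 of leukocytes summed to at most 0.259 CPM with CD3E at 0, 3 basal ones to at most 1.70 CPM with TP63 at 0, and 3 neuroendocrine ones to 2.14 to 11.1 and 3.0 to 6.67 CPM. The 11.1 is vector library 1, where CHGA had 143 reads against 3 and 1 in the other vector libraries and 0 in the knockout libraries, and INSM1 had 13 against 0 elsewhere. The 4 fibroblast markers, with DCN at 0, summed to 20.8 to 21.9 and 21.1 to 28.4 CPM, nearly all COL1A1, while COL1A2 had 22, 20 and 10 reads in the vector libraries and 0 in every knockout library. The 3 endothelial markers, with PECAM1 at 0, summed to 4.56 to 5.12 and 6.61 to 10.3 CPM. This sum was mostly VWF, and its higher value in every knockout library came from VWF alone. By library, VWF was at 5.117, 4.199 and 4.505 (vector) against 6.609, 10.32 and 7.756 CPM (knockout). CDH5 did not rise, with 0, 7 and 1 reads (vector) against 0, 0 and 1 (knockout). The part of VWF in the results was not tested.

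The elements through which these genes regulate each other were looked up in RefSeq promoter windows (GRCh38.p14, 250 bases before to 50 bases after each start). All 10 genes matched, with 14 windows. The E-box was searched as CACGTG. The related E'-box was searched as CACGTT. The D-box was searched as TTATGTAA and also as TTACGTAA. Both strands were searched, no motif contains another, and capitals mark the match, which for CRY1 and CRY2 is the E'-box read from the other strand. Each stretch runs 5′ to 3′ on the strand of its gene. They are shown because BHLHE41 and BHLHE40 bind E-boxes and because DBP and TEF bind D-boxes.
BHLHE41, E-box: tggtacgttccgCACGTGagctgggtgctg
BHLHE40, E-box: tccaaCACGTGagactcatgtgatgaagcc
PER1, E-box: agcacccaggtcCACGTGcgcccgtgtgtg
TEF, E-box at the first of its starts: gcgcgacagctcCACGTGctgcagctggcg
TEF, E-box at the other start: cacctggccccgCACGTGtctatcttatcc
PER2, E'-box: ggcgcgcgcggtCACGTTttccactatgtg
PER2, D-box: cccgctgcggcTTACGTAAccgccgccggc
PER3, D-box: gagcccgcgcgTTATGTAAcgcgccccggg
CRY1, E'-box: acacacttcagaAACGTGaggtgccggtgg
CRY2, E'-box: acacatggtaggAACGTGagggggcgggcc
CLOCK, E'-box: tcaccactcgggCACGTTtggagcagcgcc

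The E-box of BHLHE41 lay 48 bases before its RefSeq start, at chr12:26125080-26125085 on the minus strand, and that of BHLHE40 lay 245 bases before its RefSeq start, at chr3:4979192-4979197 on the plus strand. GENCODE 29 starts both genes further upstream, so by its coordinates both E-boxes lie inside the gene. By those coordinates the matches of PER1, PER2, CRY1, CRY2 and CLOCK, and of TEF at its other start, also lie inside their genes. Distances given here are to RefSeq starts. PER1 held its E-box 173 bases before the start, at chr17:8152572-8152577 on the minus strand. PER3 held its D-box 177 bases before the start, at chr1:7784114-7784121 on the plus strand, and the PER2 D-box, at chr2:238288606-238288613 on the minus strand, began 3 bases before the start and ran across it. CACGTG was found in 7.26% of all 35116 windows, or for 8.77% of 27305 genes, and for 4 of the 10 genes. CACGTT was found in 5.34% of windows, or for 6.44% of genes, and for 4 of the 10. TTATGTAA was found for 1.13% of genes and TTACGTAA for 0.146% (0.886% and 0.125% of windows), each for 1 of the 10. These matches are letters in a window and not shown binding sites. DBP held none of the 4 motifs in its window. The DBP sequence upstream of the annotated exons (chr19:48637439-48637629, minus strand) is shown because DBP had the highest level relative to the vector libraries of the 10 genes.
DBP, upstream: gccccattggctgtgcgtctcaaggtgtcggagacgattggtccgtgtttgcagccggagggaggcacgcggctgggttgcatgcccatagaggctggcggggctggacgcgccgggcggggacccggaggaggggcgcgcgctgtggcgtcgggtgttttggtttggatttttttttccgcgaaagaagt

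BHLHE41 was low in every knockout library. BHLHE41 (ENSG00000123095.6, chromosome 12, 26120026 to 26125127, minus strand, GENCODE 29 on GRCh38) had 139, 125 and 147 reads in the vector libraries and 34, 19 and 22 in the knockout libraries. In CPM these were 7.11, 6.998 and 8.08 against 1.61, 1.20 and 1.14. The highest knockout library lay far below the lowest vector library. The fitted log2 fold change was -2.48 ± 0.23 (SE), a level 5.59-fold lower in the knockout libraries, and -2.42 ± 0.24 without knockout library 2. In bulk RNA, fewer cells with the transcript and less of it per cell cannot be told apart.

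BHLHE40, the other repressor of the pair, did not share this. BHLHE40 (ENSG00000134107.5, chromosome 3, 4979116 to 4985323, plus strand) stood at 18.6, 19.99 and 21.9 CPM in the vector libraries and at 27.7, 14.6 and 22.5 CPM in the knockout libraries. Knockout libraries 1 and 3 lay above all vector libraries and knockout library 2 below them, so the groups overlap. The log2 fold change was 0.10 ± 0.24 (SE) with all libraries and 0.31 ± 0.12 without knockout library 2. Its sign turned (-0.12) without knockout library 1.

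Within each library, reads of BHLHE40 over reads of BHLHE41, a ratio that needs no library scaling, were 2.61, 2.86 and 2.71 for the vector and 17.2, 12.2 and 19.8 for the knockout. All 3 knockout ratios, library 2 included, lay far above the vector ratios.

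**Figure D1:**
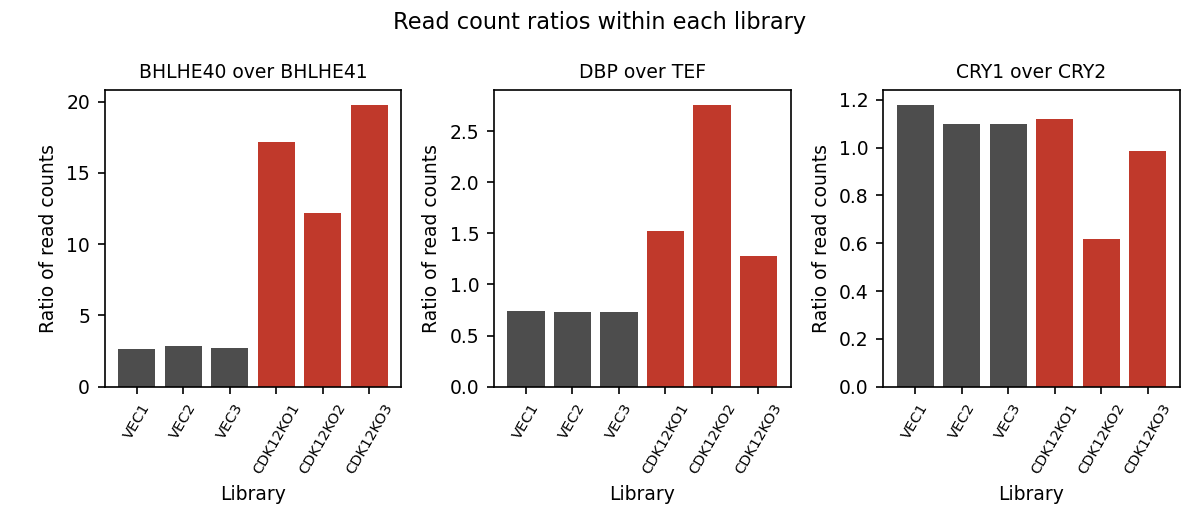
Read counts of a gene divided by those of its relative, in each library (bars, linear axis from 0): BHLHE40 over BHLHE41, DBP over TEF and CRY1 over CRY2. The first ratio is 2.61 to 2.86 in the vector libraries (grey) and 12.2 to 19.8 in the knockout libraries (red), and CRY1 over CRY2 is lowest in knockout library 2 (0.617).

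The 3 PER genes, the inhibitory arm of the loop, lay somewhat lower in the knockout libraries, without overlap between the groups. Over all tested genes 19% lay lower without overlap. PER1, which is also induced quickly by outside signals, stood at 34.2, 38.8 and 34.8 CPM in the vector libraries and at 29.7, 30.95 and 33.7 CPM in the knockout libraries. Its groups do not overlap, but knockout library 3 and vector library 1 are close. The log2 fold change was -0.19 ± 0.12 (SE), and -0.19 ± 0.10 without knockout library 2.

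PER2, which together with PER1 carries most of the repression, stood at 8.96, 11.1 and 11.1 CPM in the vector libraries and at 8.55, 5.60 and 8.58 CPM in the knockout libraries. Knockout library 2 was the lowest, and the others lay just under vector library 1. The log2 fold change was -0.45 ± 0.22 (SE) with it and -0.28 ± 0.16 without it.

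PER3, regarded as the least essential of the 3, stood at 14.7, 14.2 and 17.5 CPM in the vector libraries and at 12.2, 10.3 and 13.3 CPM in the knockout libraries. The groups do not overlap, and the log2 fold change was -0.37 ± 0.17 (SE), or -0.28 ± 0.14 without knockout library 2. None of the PER genes passed the main fit over all genes with or without that library, where 0.596% and 19.1% of tested genes passed. In the fit without it PER3 passed with the replicate block, where 5540 of 16339 tested genes passed. PER3 also passed there with vector library 2 left out too, where 4703 of 16027 tested genes passed.

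CRY1 and CRY2 encode the partners of the PER proteins. CRY1 stood at 15.5, 15.2 and 15.2 CPM in the vector libraries and at 14.02, 8.62 and 13.03 CPM in the knockout libraries. The vector libraries were nearly equal, and knockout library 2 was the lowest by far. Its log2 fold change was -0.36 ± 0.20 (SE), and -0.18 ± 0.13 without knockout library 2.

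CRY2 stood at 13.1, 13.9 and 13.8 CPM in the vector libraries and at 12.6, 13.97 and 13.2 CPM in the knockout libraries. The groups overlap, and the log2 fold change was -0.04 ± 0.13 (SE), or -0.08 ± 0.13 without knockout library 2, and 0.00 without knockout library 1. The count ratio of CRY1 to CRY2 was 1.18, 1.10 and 1.10 in the vector libraries and 1.12, 0.617 and 0.984 in the knockout libraries, so the ratio was lowest in knockout library 2.

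CLOCK, the DNA-binding partner of BMAL1, stood at 17.5, 15.7 and 18.6 CPM in the vector libraries and at 16.5, 14.4 and 15.2 CPM in the knockout libraries. The groups overlap, and the log2 fold change was -0.17 ± 0.14 (SE), or -0.13 ± 0.12 without knockout library 2.

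DBP was higher in every knockout library. DBP (ENSG00000105516.11, chromosome 19, 48630030 to 48637438, minus strand) had 278, 268 and 212 reads in the vector libraries and 487, 699 and 423 in the knockout libraries. In CPM these were 14.2, 15 and 11.7 against 23.0, 44.0 and 21.9. All knockout libraries lay above all vector libraries, and knockout library 2 was by far the highest. The log2 fold change was 1.12 ± 0.29 (SE, 2.17-fold) with it and 0.71 ± 0.13 (1.64-fold) without it.

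TEF, a relative of DBP that binds the same element, was not higher as a group. TEF stood at 19.1, 20.4 and 16.04 CPM in the vector libraries and at 15.1, 15.9 and 17.1 CPM in the knockout libraries. The groups overlap, and the log2 fold change was -0.21 ± 0.15 (SE), or -0.21 ± 0.13 without knockout library 2. The count ratio of DBP to TEF was 0.745, 0.734 and 0.726 in the vector libraries and 1.52, 2.76 and 1.28 in the knockout libraries. The unstranded column leaves out many DBP reads and almost no TEF reads, and on the sums of both stranded columns, which can hold reads of an overlapping gene, the ratios were 1.40, 1.32 and 1.32 against 2.59, 5.85 and 2.17. The ratio was higher in every knockout library by either count, and which gene of the pair is ahead in the vector libraries depends on the column.

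**Figure D2:**
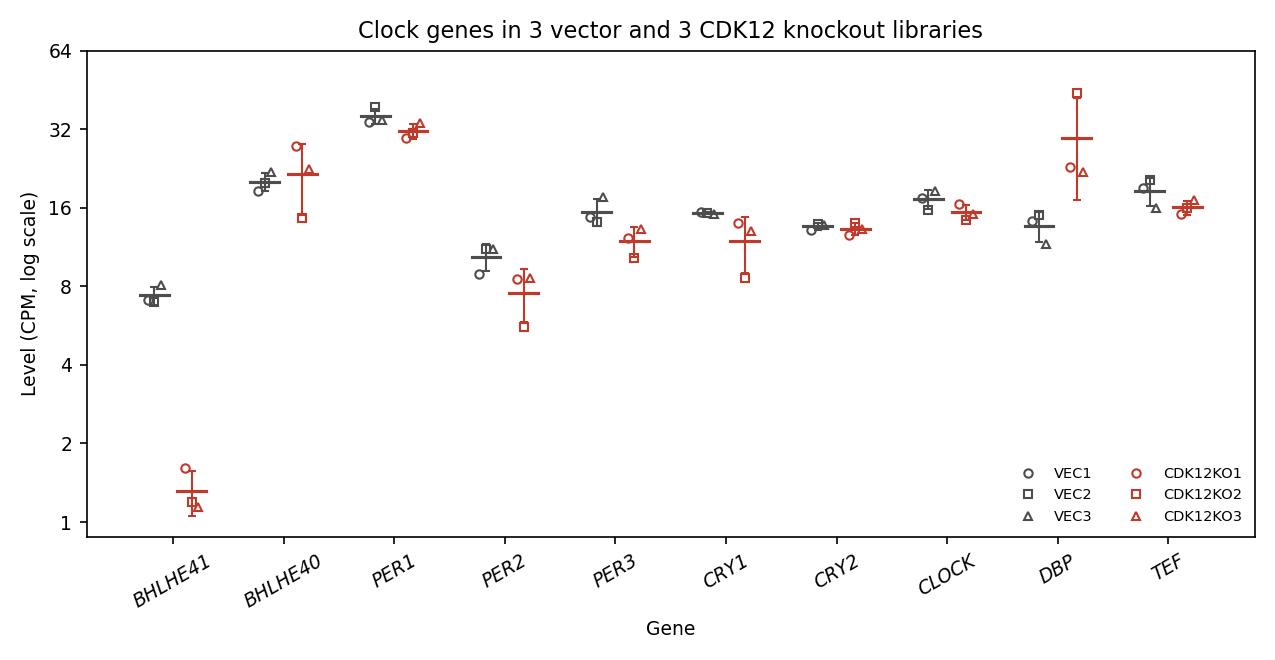
Level of each of the 10 clock genes (CPM, log scale) in vector libraries (grey) and knockout libraries (red), with library number by symbol, the mean as a line and SD as bars (n = 3 each). BHLHE41 (6.998 to 8.08 against 1.14 to 1.61 CPM) and DBP (11.7 to 15 against 21.9 to 44.0 CPM) show the widest gaps between groups.

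With all 6 libraries, BHLHE41 was the 1 gene of the 10 that passed an adjusted p of 0.05 in the edgeR fit over all genes, where 0.596% of 15783 tested genes passed (0.418% higher, 0.177% lower). Without knockout library 2, BHLHE41 (lower) and DBP (higher) passed, 2 of 10, where 19.1% of 16339 tested genes passed (10.2% higher, 8.88% lower). Groups did not overlap for 6 of the 10 genes (1 higher, 5 lower) with all libraries, where 39.4% of tested genes did not overlap (20.4% higher, 19% lower). Without knockout library 2 it was 7 (2 higher, 5 lower), where the share was 47.2% (24.5% higher, 22.8% lower). In size, 2 of the 10 differed by at least 1 on the log2 scale (BHLHE41 and DBP), against 10.3% of tested genes, and 1 without knockout library 2, against 5.78%. Knockout library 2 was the lowest of the 6 libraries for 5 of the 10 genes and for 39.6% of tested genes. Since the genes were chosen with this comparison known, nothing is read from these counts. The call of BHLHE41 with all libraries ended without vector library 1, 2 or 3 or knockout library 3, when 4 to 8 genes in all passed, while its log2 fold change stayed between -2.66 and -2.38 with any 1 library left out.

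The median log2 fold change of the 10 genes was -0.20 over all libraries (-0.185 without knockout library 2), and 8 of 10 genes lay below the vector mean in each knockout library. Over all tested genes the medians were 0.00 and -0.01. In knockout libraries 1 and 3 the middle 50% of all tested genes lay between -0.21 and 0.25 of the vector mean on the log2 scale, and in knockout library 2 between -0.64 and 0.68. BHLHE41 was shifted by -2.13, -2.52 and -2.59 in knockout libraries 1 to 3, outside the middle 90% of genes in each of them (in knockout library 2 from -1.71 to 1.84). DBP was shifted by 0.76, 1.69 and 0.69, outside the middle 50% in each and inside the middle 90% in each. The values of BHLHE40 (-0.46), PER2 (-0.87), CRY1 (-0.82) and DBP in knockout library 2 stand beside its wider spread over all genes, and the part of that library's spread in them was not tested.

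**Figure D3:**
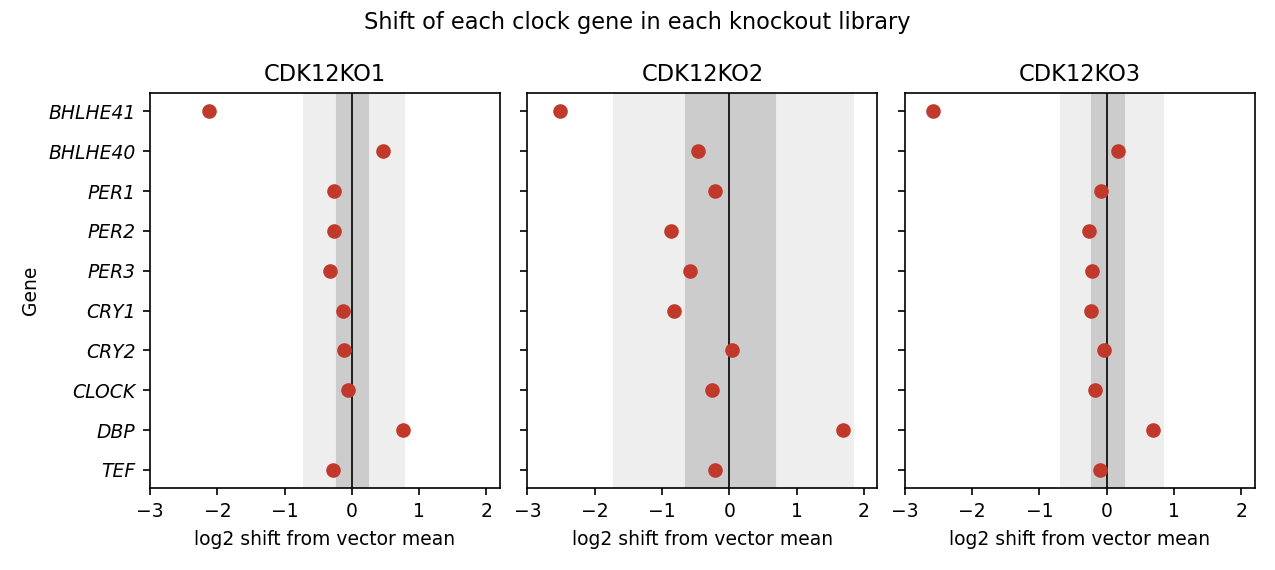
Log2 shift of each clock gene from the vector mean in knockout libraries 1, 2 and 3 (points), with the middle 50% (dark grey) and middle 90% (light grey) of all tested genes in that library. BHLHE41 lies left of the grey band in all 3 panels (-2.13, -2.52 and -2.59), and the band is widest in knockout library 2.

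Levels of different genes can be compared only per length. Divided by exonic length in kb, the order in the vector libraries was BHLHE40 (5.25 ± 0.44 CPM per kb, mean ± SD, n = 3), PER1 (5.13 ± 0.36), TEF (3.93 ± 0.48), CRY1 (3.02 ± 0.026), CRY2 (2.19 ± 0.069), DBP (2.08 ± 0.27), PER3 (1.91 ± 0.22), BHLHE41 (1.87 ± 0.15), PER2 (1.51 ± 0.18) and CLOCK (1.47 ± 0.12). By these unstranded counts BHLHE40 and PER1 did not differ beyond their spread, nor did CRY2, DBP, PER3 and BHLHE41 as neighbours, nor PER2 and CLOCK. By the sums of both stranded columns BHLHE40 stood at 6.26 ± 0.49 and PER1 at 5.13 ± 0.36 CPM per kb. In the knockout libraries BHLHE41 had the lowest level of the 10, 0.333 ± 0.065 CPM per kb, by the stranded sums too (0.373 ± 0.047). The place of DBP depends on the column: it stood at 4.53 ± 1.90 CPM per kb in the knockout libraries, but at 8.63 ± 4.85 by the stranded sums, and in the vector libraries those put it at 3.81 ± 0.50, between TEF and CRY1, with PER3 at 2.76 ± 0.43, above CRY2.

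Several of these genes overlap others, and the counts do not use strand, so reads under 2 overlapping genes were set aside by the authors' counting. The unstranded counts kept 88.8% of the reads that the sum of both stranded columns holds for BHLHE41, 85.6% for BHLHE40, 71.9% for PER3 and 53.6% for DBP, and over 92% for the other 6. BHLHE41 overlaps SSPN on the other strand, and SSPN had 0 reads in every library. DBP overlaps SPHK2, whose difference was -0.25 ± 0.19 on the log2 scale (edgeR adjusted p = 0.408). On the stranded sums the fitted log2 fold changes were -2.51 for BHLHE41 and, without knockout library 2, 0.60 for DBP. BHLHE40-AS1, antisense to BHLHE40, had at most 11 reads in any library.

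The other genes of the clock network, 25 in all and none of them among the 10, were taken by function. With all 6 libraries 0 of 22 tested genes passed in edgeR (the counts by DESeq2 and limma-voom were 1 and 0). Unadjusted edgeR p was under 0.05 for 4 of the 22, and for 3420 of all 15783 tested genes. Without knockout library 2, 2 rose, 2 fell and 18 did not pass, a share near the 19.1% of all tested genes that passed there. The network's median log2 fold change was -0.09 with all libraries and -0.02 without knockout library 2.

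Among the activators and nuclear receptors, CIART was the gene that passed without knockout library 2. CIART encodes a repressor of the CLOCK and BMAL1 pair and stood at 7.16, 5.71 and 6.48 CPM in the vector libraries and at 10.0, 9.88 and 9.46 CPM in the knockout libraries. The knockout libraries lay close together and above all vector libraries. CIART rose by 0.59 ± 0.17 (log2 ± SE) without knockout library 2 (edgeR adjusted p = 0.0181, 0.0112 to 0.162 over the alternatives, and lost when knockout library 1 or 3 was left out too), and the value with all libraries was 0.60 ± 0.16 (edgeR adjusted p = 0.163).

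BMAL1, the partner of CLOCK, stood at 8.85, 10.0 and 8.96 CPM in the vector libraries and at 8.21, 5.29 and 8.27 CPM in the knockout libraries. Its log2 fold change was -0.35 ± 0.21 (edgeR adjusted p = 0.332). The fold changes in this paragraph are those with all libraries. On the same scale NPAS2, which can stand in for CLOCK, was at -0.48 ± 0.23 and BMAL2, a relative of BMAL1, at 0.19 ± 0.16 (edgeR adjusted p = 0.260 and 0.456). The REV-ERB genes NR1D1 and NR1D2, repressors of BMAL1, had values of 0.01 ± 0.22 and 0.05 ± 0.15 (edgeR adjusted p = 0.977 and 0.828). RORA and RORB were under the filter on low counts.

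Of 13 tested genes whose products modify clock proteins, USP2 rose and CSNK1A1 and PRKAA1 fell without knockout library 2. CSNK1A1, a casein kinase of the family that marks PER proteins for removal, stood at 86.4, 81.2 and 93.6 CPM in the vector libraries and at 66.7, 27.9 and 63.2 CPM in the knockout libraries. The groups do not overlap, with knockout library 2 the lowest, and without that library the log2 fold change was -0.43 ± 0.08 (edgeR adjusted p = 0.000843, up to 0.0408 over the alternatives). With all libraries CSNK1A1 was at -0.73 ± 0.31 (edgeR adjusted p = 0.230). The values of the other modifiers, which follow, are from the fit without knockout library 2. PRKAA1, a catalytic subunit of the AMP-activated kinase that acts on CRY proteins, fell by 0.38 ± 0.08 on the log2 scale in the same fit (edgeR adjusted p = 0.00308, up to 0.0467). USP2, a deubiquitinase with clock-driven expression, rose by 0.52 ± 0.18 (edgeR adjusted p = 0.0483, up to 0.270, and lost in DESeq2 and when vector library 3 or knockout library 1 or 3 was left out too). TIMELESS, a replication factor that also binds clock proteins, was at -0.16 ± 0.06 (edgeR adjusted p = 0.0838). The casein kinases CSNK1D and CSNK1E had values of 0.02 ± 0.07 and 0.06 ± 0.08 there, with edgeR adjusted p = 0.907 and 0.627.

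The 2 remaining D-box factors did not pass with or without knockout library 2, and the values given are those with all libraries. HLF, the third PAR bZIP activator, stood at 5.94, 5.43 and 5.71 CPM in the vector libraries and at 6.99, 7.30 and 7.24 CPM in the knockout libraries (log2 0.33 ± 0.16, edgeR adjusted p = 0.257). NFIL3, the repressor that competes for the D-box, was at -0.25 ± 0.17 on that scale (edgeR adjusted p = 0.369).

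**Figure D4:**
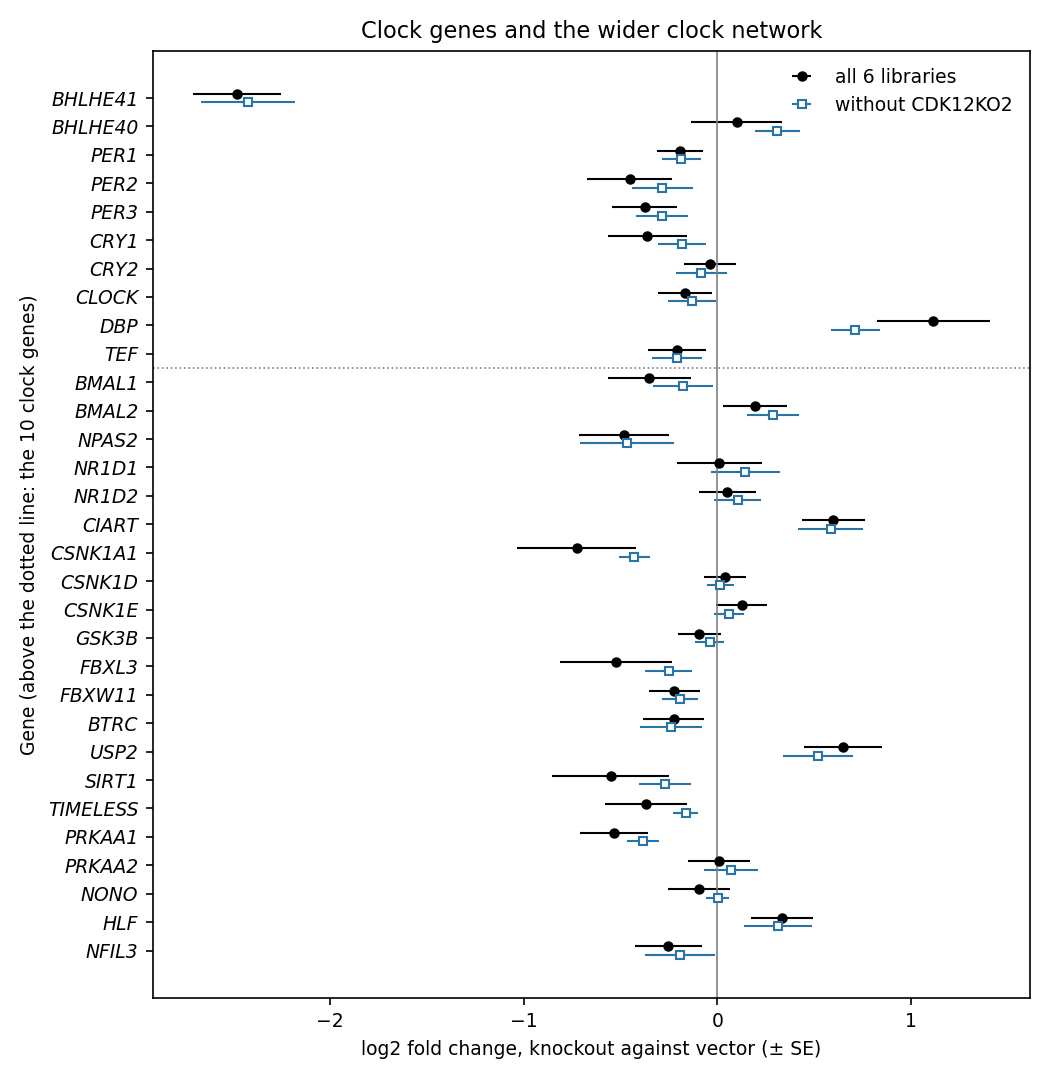
Log2 fold change of knockout against vector (± SE) for the 10 clock genes (above the dotted line) and 21 of the 22 tested genes of the wider network, with all 6 libraries (black) and without knockout library 2 (blue squares). BHLHE41 lies at -2.48, and the 21 network genes drawn lie between -0.73 (CSNK1A1) and 0.65 (USP2).

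Among 14 tested clock-regulated output genes 0 passed with all libraries in edgeR. Unadjusted edgeR p was under 0.05 for 3 of the 14, and for 3420 of all 15783 tested genes. In the fit without knockout library 2, 1 rose and 2 fell, again near the 19.1% over all tested genes. TSC22D3, a gene induced by glucocorticoids, stood at 75.7, 73.1 and 73.1 CPM in the vector libraries and at 107, 97.1 and 106 CPM in the knockout libraries. It rose by 0.52 ± 0.07 (log2 ± SE) without knockout library 2 (edgeR adjusted p = 3.54e-05, up to 0.00224). FKBP5, a chaperone gene also induced by glucocorticoids, went the other way, from 252, 234 and 235 CPM to 159, 109 and 148 CPM. FKBP5 fell by 0.65 ± 0.07 in that fit (edgeR adjusted p = 2.18e-06, up to 0.000462), and LPIN1, a phosphatase of lipid synthesis, by 0.42 ± 0.09 (edgeR adjusted p = 0.00339, up to 0.0528 and lost when knockout library 3 was left out too). NOCT, a rhythmic nuclease-like enzyme, was at -0.28 ± 0.15 there (edgeR adjusted p = 0.195). The list's median was -0.26 with all libraries and -0.07 without knockout library 2.

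BHLHE40 and BHLHE41 belong to the wider family of helix-loop-helix repressors with an Orange domain, which holds the HES and HEY genes, many of them Notch targets. Of 7 tested relatives HES1 fell with all libraries, and without knockout library 2 HES1 and HES2 fell and HES6 and HES7 rose, where 19.1% of all tested genes passed. HES1 stood at 147, 151 and 158 CPM in the vector libraries and at 70.0, 76.7 and 82.4 CPM in the knockout libraries, with knockout library 2 in the middle of its group. On the log2 scale HES1 fell by 0.99 ± 0.12 (edgeR adjusted p = 0.0252, with alternatives reaching 0.212). Its call ended when any library but knockout library 2 was left out, and without that one it was -1.003 ± 0.08 (edgeR adjusted p = 4.76e-08, up to 4.01e-06).

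HES6, which is known to antagonise HES1, stood at 57.3, 66.7 and 57.0 CPM in the vector libraries and at 112, 171 and 107 CPM in the knockout libraries. HES6 rose by 0.85 ± 0.08 (log2 ± SE) without knockout library 2 (edgeR adjusted p = 4.63e-07, up to 2.72e-05), and the value with all libraries was 1.11 ± 0.20 (edgeR adjusted p = 0.0782). HES2 fell by 0.74 ± 0.21 on the log2 scale without knockout library 2 (edgeR adjusted p = 0.0183, up to 0.198, and lost when vector library 1 or knockout library 1 or 3 was left out too). HES7 rose by 1.84 ± 0.50 there (edgeR adjusted p = 0.0134, up to 0.279 and lost when knockout library 3 was left out too), from a mean of 0.535 CPM. The median over the 7 relatives was 0.67 with all libraries and -0.05 without knockout library 2, so its sign rests on that library.

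BHLHE40 and BHLHE41 are also known to be induced by hypoxia. Of 12 tested hypoxia-induced genes 0 passed with all libraries in edgeR. Unadjusted edgeR p was under 0.05 for 1 of the 12, and for 3420 of all 15783 tested genes. In the fit without knockout library 2 NDRG1 fell and 0 rose, where 19.1% of all tested genes passed. NDRG1, which is androgen-induced as well, stood at 82.6, 79.6 and 71.9 CPM in the vector libraries and at 55.0, 13.3 and 46.1 CPM in the knockout libraries, so knockout library 2 was again the lowest. Its log2 fold change was -0.63 ± 0.09 without that library (edgeR adjusted p = 7.26e-05, up to 0.00854) and -1.03 ± 0.45 with it (edgeR adjusted p = 0.236). PDK1, EGLN3 and PFKFB4 act in glucose metabolism and oxygen sensing. Without knockout library 2 they were at -0.34 ± 0.12, 0.44 ± 0.20 and 0.31 ± 0.14 (edgeR adjusted p = 0.0538, 0.131 and 0.139). VEGFA, the vascular growth factor, had a value of 0.04 ± 0.09 in the same fit (edgeR adjusted p = 0.797), and the list's median was -0.02.

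PER1 is a known target of cyclic AMP signalling through CREB. Of 10 tested genes of that pathway FOS rose with all libraries, and FOS and CRTC2 rose without knockout library 2, near the 19.1% over all tested genes. FOS, a subunit of AP-1, stood at 0.512, 0.728 and 0.934 CPM in the vector libraries and at 9.06, 4.28 and 9.62 CPM in the knockout libraries, a rise of 3.40 ± 0.41 on the log2 scale (edgeR adjusted p = 0.0253, up to 0.198, and lost in limma-voom and when any library but knockout library 2 was left out). Without that library it was 3.68 ± 0.26 (edgeR adjusted p = 9.74e-09). CRTC2, a CREB coactivator, rose by 0.31 ± 0.09 without knockout library 2 (edgeR adjusted p = 0.0243, up to 0.241, and lost when vector library 1 or 3 or knockout library 1 or 3 was left out too). CREB1, which encodes CREB, was at -0.26 ± 0.10 without knockout library 2 (edgeR adjusted p = 0.0687). PDE4D, a cyclic AMP phosphodiesterase, was at 0.58 ± 0.22 there (edgeR adjusted p = 0.0760). The list's median was 0.13, and 0.30 without knockout library 2.

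The genes around BHLHE41 and DBP were looked at next. Of 12 other tested genes within 1 Mb of BHLHE41, 0 passed with all libraries in edgeR. Unadjusted edgeR p was under 0.05 for 3 of the 12, and for 3420 of all 15783 tested genes. In the fit without knockout library 2, 2 fell, where 19.1% of all tested genes passed (8.88% lower). The medians were -0.30 with all libraries and -0.19 without that library. Genes named here were singled out after their values were seen. ENSG00000256894, a gene GENCODE classes as antisense RNA, lies on the strand of BHLHE41 (chromosome 12, 26125155 to 26126617) with its 3′ end 28 bases upstream of it. It had 23, 16 and 19 reads in the vector libraries and 6, 1 and 2 reads in the knockout libraries. Its log2 fold change was -2.68 ± 0.54 (edgeR adjusted p = 0.0950), and -2.37 on leaving out knockout library 2 (edgeR adjusted p = 0.0110, up to 0.161 and lost when knockout library 3 was left out too). RASSF8, the nearest protein-coding gene tested, was at 3.10 ± 0.403 and 1.36 ± 0.600 CPM (SD, n = 3 each), and fell by 0.88 ± 0.29 on the log2 scale without knockout library 2 (edgeR adjusted p = 0.0359, up to 0.247, and lost in DESeq2, without a filter and when vector library 3 or knockout library 1 or 3 was left out too).

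Within 1 Mb of DBP, on chromosome 19, 62 other genes were tested. Of these 2 rose with all libraries, where 0.418% of all tested genes rose. In the fit without knockout library 2, 17 rose and 1 fell, where 10.2% of all tested genes rose and 8.88% fell. The median log2 fold change was 0.52 with all libraries and 0.20 without that library. With all libraries 52 of the 62 genes lay above 0, as did 50% of all tested genes and 1 of the 12 near BHLHE41. The genes named here were chosen after their values were seen. CA11, a carbonic anhydrase-related gene on the same strand as DBP whose 3′ end lies 504 bases upstream of it, had 6, 6 and 2 reads in the vector libraries and 57, 70 and 52 reads in the knockout libraries. CA11 rose by 3.66 ± 0.45 (log2 ± SE, edgeR adjusted p = 0.0271). FGF21, a hormone gene of the fasting and stress response, had 3, 12 and 11 reads in the vector libraries and 107, 152 and 101 in the knockout libraries, a rise of 3.79 ± 0.51 (edgeR adjusted p = 0.0338). Both calls ended when any library but knockout library 2 was left out (edgeR adjusted p up to 0.182 and 0.217), that of FGF21 also in limma-voom, and held in every alternative run without that library.

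**Figure D5:**
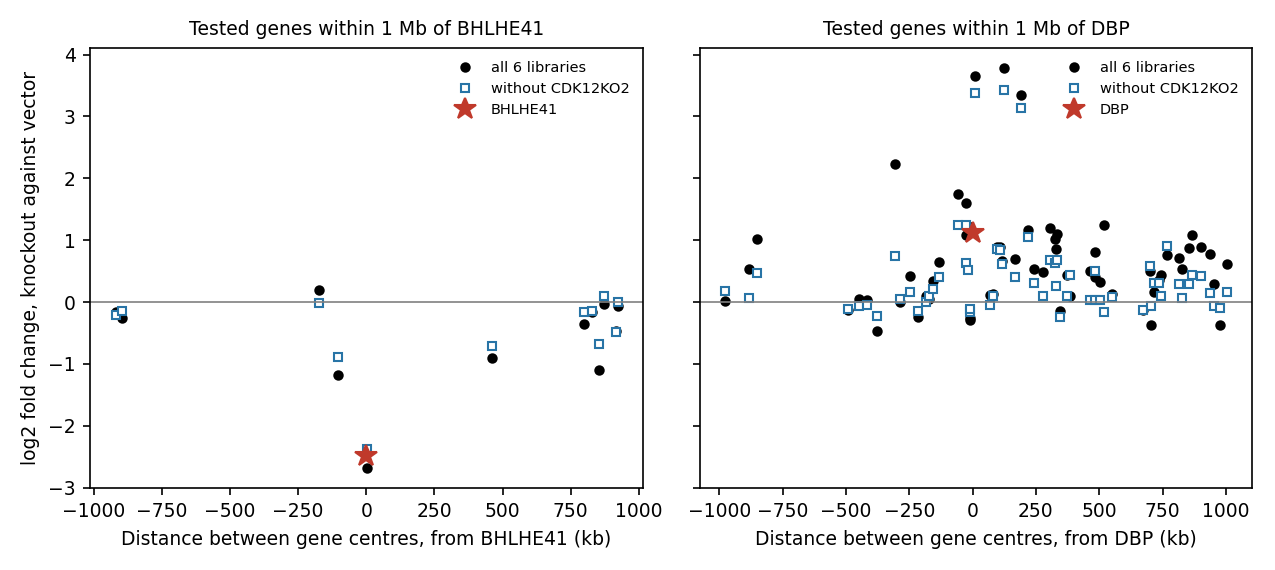
Log2 fold change of knockout against vector for tested genes within 1 Mb of BHLHE41 (left, 12 genes) and of DBP (right, 62 genes), against the distance between gene centres in kb, with all libraries (black) and without knockout library 2 (blue squares). The star is the named gene, and CA11 and FGF21 lie at 3.66 and 3.79 near and right of DBP.

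The pattern of BHLHE41 over the 6 libraries was compared with those of 2385 genes that code for protein, reached 5 CPM on average and differed by 0.5 or more in size on the log2 scale. Among the 5 most like it by Pearson's r of log2 CPM were LBHD1 (r = 0.998), the endoplasmic reticulum chaperone gene HSPA5 (0.990), the magnesium transporter gene SLC41A1 (0.989) and the sterol transfer gene STARD4 (0.986). These values describe 6 libraries that share the group difference. STARD4 stood at 11.2, 8.45 and 11.2 CPM in the vector libraries and at 3.16, 2.08 and 1.60 CPM in the knockout libraries, and of these 4 genes it had the change nearest in size to that of BHLHE41 (log2 -2.16 ± 0.29, edgeR adjusted p = 0.0326, lost with up to 0.217 when any library but knockout library 2 was left out). HSPA5 was at 2065 ± 47.5 and 1373 ± 84.1 CPM (SD, n = 3 each).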

How the data were processed

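RNA of 3 vector and 3 CDK12 knockout libraries was sequenced, and titles gave group and replicate. The deposited files list raw read counts for each gene, with no normalisation, laid out as STAR writes them. The tools FastQC and STAR and the build GRCh38 come from what is stated per the submitters' processing notes; versions and annotation release were not given in the sources used here. Per the labels' protocols, a SMARTer kit was used. The ratio of the stranded columns was 1.02 to 1.04, so the unstranded column was analysed. The 4 summary rows were left out of library sizes and tests. They held 11.1 to 14.4% of reads as ambiguous, 3.62 to 7.45% outside genes, 6.49 to 8.73% multimapping and 4.07 to 5.51% unmapped. Knockout library 2 had the most ambiguous reads (14.4%) and the fewest outside genes (3.62%). Its scaling factor (TMM) was 0.737, against 1.04 to 1.10 in the other libraries. No pair of libraries within a group matched to sampling noise (chi-square over its degrees of freedom was at least 3.27).

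Tests used edgeR 4.0.16 in R 4.3.3 (filterByExpr, TMM, robust quasi-likelihood, no block), with Benjamini-Hochberg adjustment over all tested genes and a threshold of 0.05. SE is the log2 fold change over the square root of F, and log2 CPM had a prior count of 2. The fit was tested on counts simulated with its own estimates of spread and with no library set apart like knockout library 2. That run therefore cannot show how the calls depend on single libraries. Alternatives were DESeq2 1.42.0, limma 3.58.1 (voom), other scaling and filters, a replicate block, the summed stranded columns and each library left out. Names matched for 62672 of 62696 rows. Coordinates and exonic lengths are those of GENCODE 29, which need not be the release the authors counted on, and promoters those of RefSeq. The 10 genes and the lists were chosen with earlier results of these data known. Named genes are the 10, CDK12, from each list those called with all libraries and up to 4 with the smallest adjusted p without knockout library 2, the 5 most like BHLHE41, those said to be chosen after their values were seen, and BMAL1, NR1D1, NR1D2, CSNK1D, CSNK1E and VEGFA, added afterwards as context. Some genes that these rules name are not reported here.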

Additional observations from a re-analysis of the deposited data

How the results depend on the processing

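With all libraries, 94 genes passed, against 363 without a filter on low counts and 980 in DESeq2, 4 to 3123 with 1 library left out and 5 with the replicate block. That was 4 without vector library 1 or 2, 6 without vector library 3, 13 without knockout library 1, 8 without knockout library 3 and 3123 without knockout library 2. The clock network count of 0 became 1 in DESeq2 and was 0 to 4 with 1 library left out, the 4 without knockout library 2. Without knockout library 2, 3123 genes and 4 network genes passed, 1134 to 4703 and 2 to 6 when another library was left out as well, and 5540 and 9 with the replicate block. Where that left 1 knockout library, it was assumed to vary like the vector libraries.

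The replicate numbers were not taken as pairs, since same-numbered libraries deviated together at r = 0.135, 0.194 and 0.0841, not all over 0.1, although every library correlated best with its own number. With the replicate block BHLHE41 was not called with all libraries (log2 -2.49), nor were HES1, FOS, CA11, FGF21 and STARD4. With the block and without knockout library 2 BHLHE40 and PER3 joined BHLHE41 and DBP, where 5540 of 16339 tested genes passed.

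Of 270 log2 fold changes of the 10 genes under the alternatives, 268 moved by less than 1 SD between replicates and 2 by more. DBP was at 1.12 with all libraries. Over the 14 alternatives to that fit it ranged from 0.71 without knockout library 2 to 1.30 without knockout library 3. DBP was called in 3 of the 14: without a filter, in DESeq2 and without knockout library 2. Depth limits BHLHE41 in the knockout libraries, where it had 19 to 34 reads.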
